A study of Mus musculus with 8 samples.

Results

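The genes described here encode the mouse proteasome: its subunits, the activators and inhibitor that bind it and the chaperones that assemble it. They were taken as all transcripts whose platform gene symbol begins with Psm, a letter from a to g and a number, with the brightest probe set kept for each symbol, which gave 50 of the 19505 symbols in the deposited table. Of these, 47 are subunits, regulators or assembly factors. The other 3 match the name pattern without being counted as subunits: Psmc3ip, Psme3ip1 and Psme2b, a near copy of Psme2. RNA came from leukaemia stem cells of mice, GFP-positive granulocyte-macrophage progenitors (GMPs) taken by sorting from the bone marrow of transplanted animals and labelled MA9, the usual abbreviation of the MLL-AF9 fusion oncogene. The study set 3 arrays of Pik3ca-/- cells (KO), which lack the p110-alpha catalytic subunit of PI3 kinase, against 5 arrays of wild-type cells (WT). All 8 arrays hold GFP-positive GMPs of MA9 leukaemia, so the leukaemia and the transplant are shared by both groups. The labels name neither the deleted part of Pik3ca nor the way it was deleted, and they leave unsaid whether replicates are separate animals, so p-values cover no more than the spread of these 8 arrays, which may be technical.

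The proteasome is the protease that degrades proteins marked with ubiquitin. Its 20S core is a barrel of stacked rings: outer rings of α subunits, encoded by Psma genes, gate the entrance, and inner rings of β subunits, encoded by Psmb genes, hold the active sites. In cells exposed to interferon, and constitutively in many blood cells, the catalytic β subunits are replaced during assembly by their immunoproteasome counterparts, which favour peptides suited to MHC class I. The 19S regulatory particle, encoded by Psmc and Psmd genes, caps the core, recognises ubiquitin, removes it and unfolds the substrate with its ATPase ring. The core is the target of bortezomib, a drug used against blood cancers.

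All values are the deposited log2 values, a log2 difference is the KO mean minus the WT mean, and values per array are listed in the order of the replicate numbers. The array medians over all probe sets lay between 5.26 and 5.51. WT array 3 stood apart. Across genes it correlated with the remaining arrays at 0.921 on average, whereas each of those 7 averaged 0.968 to 0.972. The comparisons that follow are with all arrays unless stated, and the value without WT array 3 stands beside those of the members and groups described in full. Pik3ca itself was 8.73, 9.31 and 9.40 in KO, against 9.48, 9.57, 8.41, 9.51 and 9.58 in WT. The groups overlapped through WT array 3 alone, and KO minus WT was -0.16 over the 8 arrays (exact two-sided permutation p = 0.661, 56 splits) and -0.39 once that array was left out (exact p = 0.0286, the minimum for 35 splits). A probe outside the deleted part may not report the loss of the gene, and whether this holds for the Pik3ca probe set was not tested. Of the 9 GMP markers, 8 had differences between -0.30 and 0.27, with the granule genes Mpo and Elane above 17 on every array. The stem and progenitor marker Cd34 varied more, at 5.63, 7.81 and 7.42 in KO, against 9.49, 7.24, 10.94, 9.08 and 8.005 in WT. Its difference was -2.0 (exact permutation p = 0.0893), and -1.5 without WT array 3, its highest (exact permutation p = 0.143).

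No proteasome transcript passed the test between KO and WT cells. Of the 50 symbols, 48 were bright enough to be tested, with mean levels from 8.76 to 15.83. By limma with Benjamini-Hochberg adjustment over the 9920 genes tested, 0 of the 48 passed an adjusted p of 0.05, and the smallest adjusted p among them was 0.998. The background was also 0 of 9920 genes (0%). At an unadjusted p under 0.05, 0 of the 48 stood out, against 2.84% of all genes. Without WT array 3 the adjusted count was again 0 of 48 and 0% of all genes, the smallest adjusted p of the 48 was 0.989, and 2 genes, Psmg2 and Psmc6, had an unadjusted p under 0.05, against 4.68% of all genes. The 48 differences had a median of 0.059 and ran from -0.50 to 0.92, with 29 genes (60.4%) higher in KO, beside a median of 0.041 and 5553 of 9920 genes higher over all genes. Without WT array 3 the median was 0.032 with 29 genes again higher, beside 0.0002 and 50.1% over all genes. The median of the 48 was -0.048 without KO array 2 and 0.15 without KO array 1. All 3 KO arrays lay above all 5 WT arrays for 2 genes, Psma1 and Psmc6, and below them for none of the 48. That share of 4.17% stands beside 3.09% of all genes. Without WT array 3 it was 3 genes, now with Psmg2, or 6.25% beside 5.55%.

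**Figure D1:**
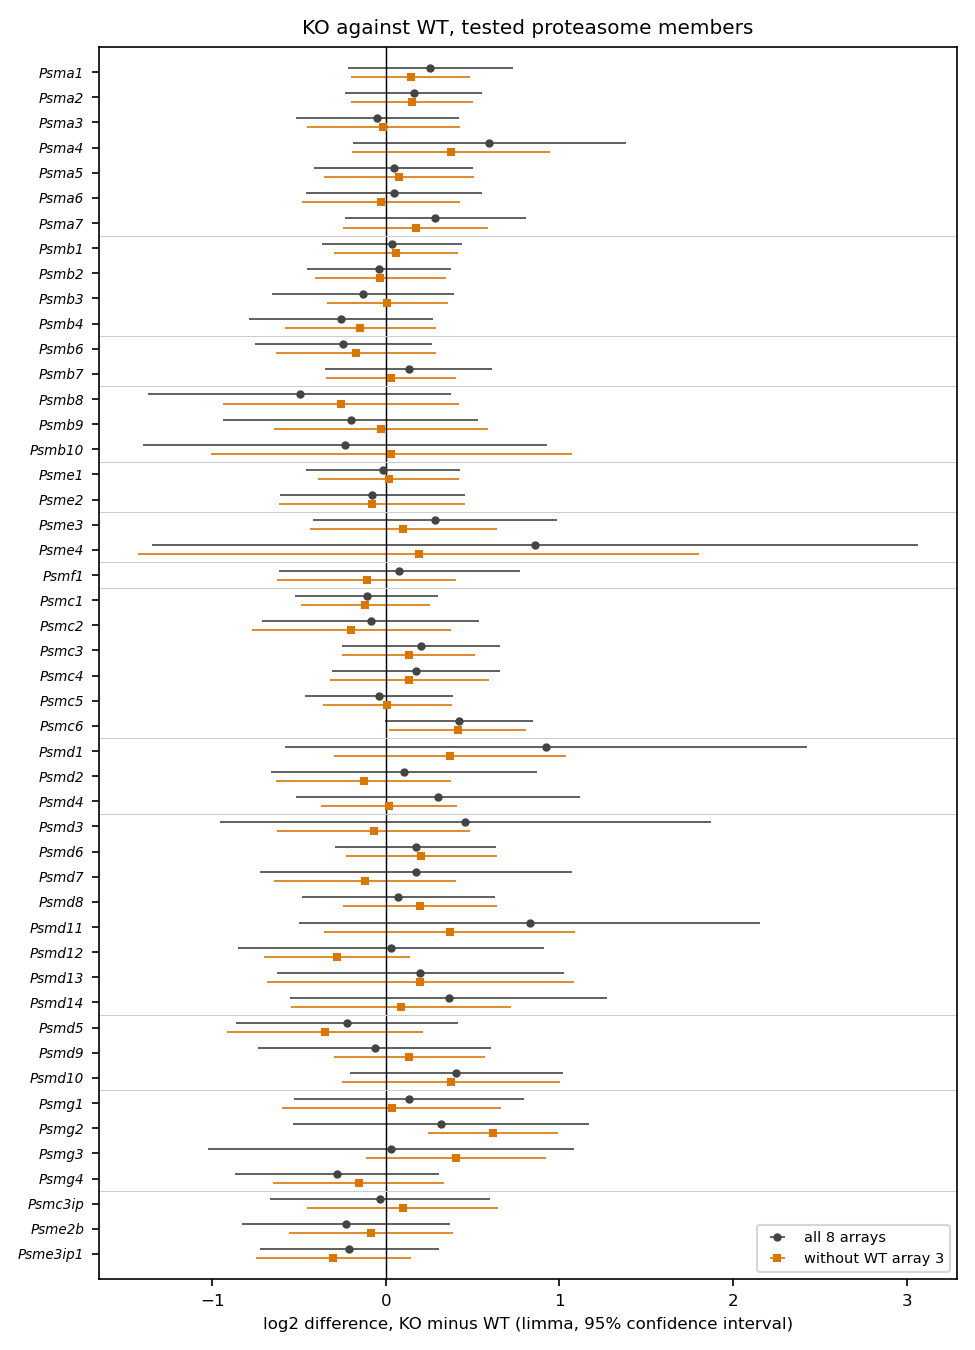
Log2 difference, KO minus WT, of the 48 tested genes with its 95% confidence interval from limma, ordered by role, with all 8 arrays (grey circles) and without WT array 3 (orange squares). The intervals of all 48 span 0 over the 8 arrays, while without WT array 3 those of Psmc6 and Psmg2 do not.

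The plot of the differences shows most of the proteasome close to 0 and the intervals of many Psmd genes narrower once WT array 3 was left out. Over the 48 genes the median SD was 0.28 in KO and 0.35 in WT, beside 0.31 and 0.45 over all genes. Leaving out WT array 3 lowered the median SD in WT to 0.20 for the members and 0.28 for all genes. The median standard error of a member's difference was 0.27, and 0.20 without that array. Fewer cells of a type and less RNA per cell cannot be told apart in such bulk samples.

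The upstream sequences of 4 genes, chosen after their values were seen, are shown, and no result rests on them. They are Psma1 and Psmc6, whose KO arrays all lay above the WT arrays, and the neighbouring immunoproteasome genes Psmb8 and Psmb9. Both of the latter were highest on WT array 3 and lowest on WT array 2. Each sequence is the 250 bases before the RefSeq start of the gene (assembly GRCm38.p6), written 5′ to 3′ in the direction of transcription. Capitals mark matches, on either strand, to any of 4 motifs: the interferon-stimulated response element core GAAANNGAA, the interferon-gamma activated site TTCNNNGAA, the antioxidant response element core TGACNNNGC that NRF1 and NRF2 bind, and the CCAAT box CCAAT.
Psma1 (chr7:114276117-114276366, minus strand): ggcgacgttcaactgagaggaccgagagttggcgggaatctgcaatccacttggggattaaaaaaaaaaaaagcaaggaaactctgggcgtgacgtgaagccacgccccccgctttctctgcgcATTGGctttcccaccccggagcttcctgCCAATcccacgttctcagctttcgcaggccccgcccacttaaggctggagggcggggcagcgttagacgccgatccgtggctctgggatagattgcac
Psmc6 (chr14:45329574-45329823, plus strand): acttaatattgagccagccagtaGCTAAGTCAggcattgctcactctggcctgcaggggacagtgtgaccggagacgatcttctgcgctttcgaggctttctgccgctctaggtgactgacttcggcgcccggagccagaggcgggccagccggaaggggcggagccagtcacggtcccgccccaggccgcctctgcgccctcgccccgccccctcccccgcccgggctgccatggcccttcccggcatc
Psmb8 (chr17:34197945-34198194, plus strand): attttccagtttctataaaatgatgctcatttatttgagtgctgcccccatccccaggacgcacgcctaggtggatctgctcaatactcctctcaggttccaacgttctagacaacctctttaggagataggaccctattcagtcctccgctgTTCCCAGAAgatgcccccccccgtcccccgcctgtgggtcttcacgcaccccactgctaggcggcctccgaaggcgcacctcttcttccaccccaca
Psmb9 (chr17:34187331-34187580, minus strand): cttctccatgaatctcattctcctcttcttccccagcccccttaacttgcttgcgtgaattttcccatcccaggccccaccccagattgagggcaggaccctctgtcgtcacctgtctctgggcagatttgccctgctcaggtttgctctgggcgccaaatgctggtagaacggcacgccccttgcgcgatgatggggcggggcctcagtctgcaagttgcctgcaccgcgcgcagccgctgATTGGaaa
The Psma1 sequence holds a CCAAT box at 126 and at 98 bases before the start, and that of Psmc6 an antioxidant response element core on the minus strand at 227 bases. The Psmb8 sequence holds an interferon-gamma activated site, TTCCCAGAA, at 97 bases, and that of Psmb9 a CCAAT box at 8 bases. RefSeq promoters were found for 42 of the 50 genes, 46 promoters in all. The interferon-stimulated response element core was in 3 of these 46 (6.52%), beside 7.13% of 32851 promoters of all genes, and the interferon-gamma activated site in 2 (4.35%), beside 7.02%. The antioxidant response element core was in 4 (8.7%), beside 10.2%, and the CCAAT box in 16 (34.8%), beside 33.8%. These shares rest on 46 promoters, and a match is a match of letters only.

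The α subunits, which form the gated outer rings of the core, tended to the KO side, but by little. Of 7 tested α genes 6 were higher in KO, with a median difference of 0.16, and 5 of 7 with a median of 0.14 without WT array 3. Psma1, which was chosen after its values were seen, was 14.42, 14.43 and 14.40 in KO, against 14.34, 14.28, 13.71, 14.12 and 14.35 in WT. Its KO arrays spanned 0.025 and all lay above WT, the lowest by 0.055 over the highest WT array. The difference was 0.26 (95% interval -0.22 to 0.73; exact two-sided permutation p = 0.125), and 0.14 without WT array 3, its lowest array (exact p = 0.0857). Psma4 was 11.10, 11.88 and 11.18 in KO, against 10.62, 11.16, 9.90, 11.20 and 11.07 in WT. KO array 2 was the highest and WT array 3 the lowest, while the other 6 arrays overlapped. The Psma4 difference of 0.60 (95% interval -0.19 to 1.38) was the largest of the ring and was 0.37 without WT array 3. The other 5 differences, those of Psma2, Psma3, Psma5, Psma6 and Psma7, lay between -0.049 and 0.28, and between -0.027 and 0.17 without WT array 3.

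The β subunits without a catalytic site, Psmb1 to Psmb4, lay closer still. Their median difference was -0.087, with 1 of 4 higher in KO, and -0.011 without WT array 3. Psmb4, whose incorporation completes the β ring during assembly, was 14.63, 15.06 and 14.54 in KO, against 14.74, 14.84, 15.44, 15.09 and 14.90 in WT. WT array 3 was the highest and KO arrays 1 and 3 the lowest, with KO array 2 among the WT values. The difference was -0.26 (95% interval -0.79 to 0.27) and -0.15 without WT array 3.

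Of the constitutive catalytic subunits, Psmb6 and Psmb7 were measured, and Psmb5 is not analysed here. Psmb6, which carries the caspase-like activity, was 12.76, 13.31 and 12.77 in KO, against 12.93, 13.32, 13.49, 13.04 and 13.19 in WT. KO arrays 1 and 3 were the lowest of the 8, but KO array 2 lay inside the WT range, and the difference of -0.24 was within the spread (95% interval -0.75 to 0.27; exact permutation p = 0.214), and it was -0.17 without WT array 3. Psmb7, which carries the trypsin-like activity, was 13.25, 13.66 and 13.35 in KO, against 13.42, 13.41, 12.88, 13.35 and 13.37 in WT. Apart from KO array 2, the highest, and WT array 3, the lowest, the Psmb7 values spanned 0.17, and the difference was 0.13, or 0.031 without WT array 3.

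The immunoproteasome catalytic subunits varied widely between arrays, and their spread ran across both groups. Psmb8, the inducible counterpart of Psmb5 also known as LMP7, was 11.89, 12.50 and 12.14 in KO, against 12.64, 11.83, 13.62, 12.99 and 12.28 in WT. WT array 3 was the highest and WT array 2 the lowest, and all 3 KO values lay between them. The difference was -0.50 (standard error 0.39, 95% interval -1.37 to 0.38; exact permutation p = 0.321) and -0.26 without WT array 3 (95% interval -0.94 to 0.42).

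Psmb9, or LMP2, which replaces Psmb6, was 13.14, 13.85 and 13.57 in KO, against 13.71, 12.96, 14.41, 13.74 and 13.79 in WT. The order of the arrays was much the same, with WT array 3 at the top and WT array 2 and KO array 1 at the bottom. Its difference was -0.20 (95% interval -0.94 to 0.53; exact p = 0.589), and -0.03 without WT array 3. Psmb10, or MECL-1, which replaces Psmb7, was 8.23, 10.25 and 9.19 in KO, against 8.84, 8.92, 10.53, 9.76 and 9.23 in WT. KO arrays 1 and 2 were 2.02 apart, more than the WT range of 1.69. The Psmb10 difference was -0.24 (95% interval -1.40 to 0.93; exact p = 0.696), 0.032 without WT array 3 and 0.26 without KO array 1. All 3 inducible subunits were thus lower in KO with all arrays, with a median difference of -0.24, and 2 of 3 were lower without WT array 3, with a median of -0.03, beside 0.041 and 0.0002 over all genes.

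**Figure D2:**
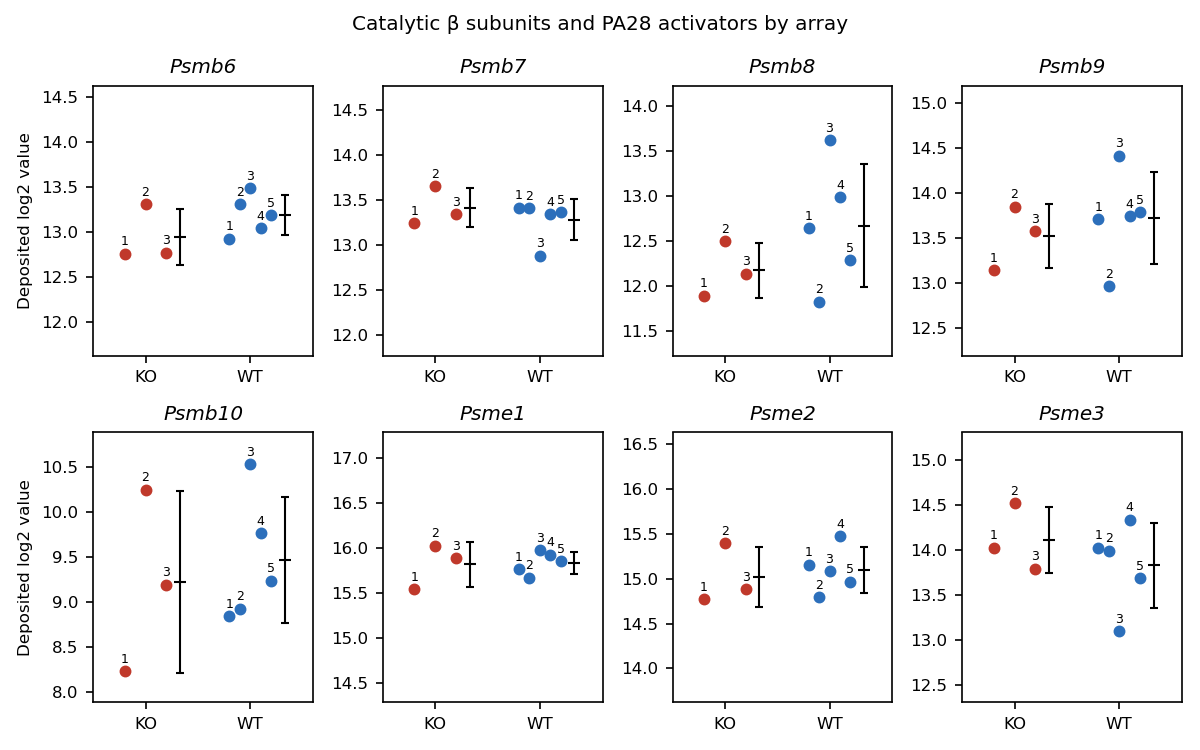
Deposited log2 values of the catalytic β subunits and PA28 activators on each of the 3 KO (red) and 5 WT (blue) arrays, numbered, with the group mean and SD at the right of each group; every panel spans the same log2 range. For Psmb8, Psmb9 and Psmb10 WT array 3 is the highest of the 8 arrays, while the KO arrays lie within the range of WT for Psmb8 and Psmb9.

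The balance between both forms of the core was read within each array as the mean of Psmb8, Psmb9 and Psmb10 minus the mean of Psmb6 and Psmb7, and set against the WT mean of the same quantity, since levels of different probe sets cannot be compared directly. It was -0.63, 0.0015 and -0.14 in KO arrays 1 to 3, against -0.16, -0.84, 0.96, 0.26 and -0.22 in WT arrays 1 to 5. The highest and the lowest array were both WT, arrays 3 and 2, and the groups overlapped. The difference between the KO and WT means was -0.26, smaller in size than the SD of 0.33 in KO and 0.66 in WT (n = 3 and 5), and it was -0.016 without WT array 3. By direct counterparts, the difference of Psmb9 minus Psmb6 was 0.042 between KO and WT and 0.14 without WT array 3. For Psmb10 minus Psmb7 it was -0.37 and 0.0009.

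Markers of other blood cells also varied between arrays, and some were high on WT array 3, where the immunoproteasome genes peaked. The mean of the 4 tested T and NK cell markers, of 9 listed, was 7.19 to 7.28 in KO, and in WT it was 8.20 on array 3 and 6.84 to 7.44 on the other 4. The mean of the 2 tested B cell markers, of 7 listed, was 6.78 to 7.09 in KO, and in WT it was 8.57 on array 3 and 6.62 to 7.41 on the other 4. Of these, Cd79b, Vpreb1, Cd4 and Nkg7 lay above the array median on all 8 arrays and were highest on WT array 3, whereas Cd3e, Cd3g, Cd79a, Ms4a1 and Pax5 lay below it on all 8. The remaining tested T and NK cell markers, Cd3d and Klrb1c, lay above the array median on only 3 of 8 arrays each. Cd3d was highest on KO array 3 (6.03, against 5.96 on WT array 3) and Klrb1c on WT array 3 (5.69). The mean of the 6 tested mast cell, basophil and eosinophil markers was 6.22 to 6.75 in KO, against 6.80 to 7.73 in WT. WT arrays 3 and 4, the arrays highest in Psmb8, were at the top, but the markers did not share this order. Prg2 (11.98 and 12.84), Gata2 and Prss34 were higher on both than on the other WT arrays. Cpa3 (5.53 and 5.97) and Ms4a2 (5.60 and 5.97) were lower on both than on the other WT arrays. Mcpt8 was the highest WT value on array 3 and the lowest on array 4. All 6 markers were lower in KO, with a median difference of -0.55, and 5 of 6 without WT array 3.

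Other lists were lower in KO without following the immunoproteasome over the arrays. The 7 monocyte markers were all lower in KO, with a median difference of -0.50, or -0.60 without WT array 3. Their mean was 8.74 to 9.27 in KO, and in WT it was 10.39 on array 1 and 9.22 to 9.39 on the other 4. For 2 of the 7, Ms4a6c (-1.14) and Irf8 (-0.97), all 3 KO arrays lay below all 5 WT arrays, and neither passed the test. That share of 28.6% stands beside 3.09% of all genes, and without WT array 3 it was again 28.6%, beside 5.55%. These 2 genes were chosen after their values were seen. The 5 tested megakaryocyte markers were all lower in KO, with a median of -0.64, and WT array 1 again had the highest mean, 10.10. Their mean was 6.55 to 6.84 in KO, and in WT it was 7.78 on array 3 and 6.39, 6.67 and 6.53 on arrays 2, 4 and 5. The KO means thus overlapped those of WT arrays 2, 4 and 5. The 8 maturing neutrophil markers were all lower too, with a median of -0.12, and KO array 3 had their highest mean. Whether any of these cells had a part in the immunoproteasome values was not tested.

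Other activators can cap the core in place of the 19S particle. PA28α (Psme1) and PA28β (Psme2), which interferon induces together with the immunoproteasome, had differences close to 0. Psme1 was 15.54, 16.02 and 15.89 in KO, against 15.76, 15.67, 15.97, 15.92 and 15.85 in WT. The groups overlapped throughout, with a difference of -0.018 (95% interval -0.46 to 0.43), or 0.016 without WT array 3. Psme2 was 14.77, 15.39 and 14.88 in KO, against 15.15, 14.79, 15.08, 15.47 and 14.97 in WT, a difference of -0.078 (95% interval -0.61 to 0.46). Without KO array 1, the lowest for both genes, the differences were 0.12 for Psme1 and 0.044 for Psme2. Unlike the 3 inducible catalytic subunits, Psme2 did not peak on WT array 3, and WT array 4 was its highest. Its near copy Psme2b was highest on WT array 3, at 13.74.

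Psme3, which encodes the nuclear activator PA28γ, was 14.03, 14.52 and 13.79 in KO, against 14.03, 14.00, 13.10, 14.34 and 13.69 in WT. WT array 3 was the lowest, 0.59 below the next array, and the difference of 0.28 was 0.10 without it. Psme4, which encodes PA200, an activator found mainly in the nucleus, had a wide range. It was 9.29, 10.64 and 8.58 in KO, against 9.94, 9.95, 5.96, 7.50 and 9.86 in WT. WT arrays 3 and 4 lay far below the other 3 WT arrays, which were close to each other, and KO array 2 was the highest. The difference of 0.86 had an interval of -1.35 to 3.07, and it was 0.19 without WT array 3. Psmf1, or PI31, which inhibits the core in vitro, was 11.32, 11.83 and 11.25 in KO, against 11.39, 11.97, 10.63, 11.54 and 11.41 in WT, a difference of 0.078 (95% interval -0.62 to 0.77) that was -0.11 without WT array 3.

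In the 19S particle, the ATPases that unfold the substrate lay on both sides of 0. Of 6 genes 3 were higher in KO, with a median difference of 0.067, and 4 with a median of 0.07 without WT array 3. Psmc6, an ATPase of the ring, had the smallest unadjusted p of all 48 members with all arrays. It was 12.73, 12.57 and 12.93 in KO, against 12.48, 12.17, 12.29, 12.23 and 12.44 in WT. Every KO array lay above every WT array, the nearest pair being KO array 2 and WT array 1. Means were 12.74 ± 0.18 in KO and 12.32 ± 0.13 in WT (SD, n = 3 and 5), a difference of 0.42 with a standard error of 0.19 and a 95% interval of -0.0032 to 0.85. The exact two-sided permutation test gave its minimum over 56 splits, p = 0.0179, whereas limma's p was 0.0514 unadjusted and 0.998 adjusted over all genes. WT array 3 lay among the other WT arrays for this gene, and without it the difference was 0.41 (95% interval 0.02 to 0.81; exact permutation p = 0.0286), with a limma p of 0.0417 unadjusted and 0.989 adjusted. The other 5 ATPases, Psmc1 to Psmc5, had differences from -0.11 to 0.20, and their groups overlapped.

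The 11 subunits of the 19S particle that are not ATPases were all higher in KO with all arrays, but that direction rested in part on WT array 3. These are the scaffolds and ubiquitin receptor of the base (Psmd1, Psmd2 and Psmd4) and the lid with its deubiquitinase Psmd14. Their differences ran from 0.027 to 0.92 with a median of 0.20, and none passed the test. Without WT array 3, 7 of 11 were higher, with a median of 0.089 beside 0.0002 over all genes.

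Psmd11, a lid subunit that braces the lid against the core, was 10.50, 10.84 and 9.76 in KO, against 10.14, 9.76, 7.69, 10.49 and 9.60 in WT. WT array 3 was 1.91 below the next array, and the remaining arrays overlapped. The Psmd11 difference was 0.83 (95% interval -0.50 to 2.15; exact permutation p = 0.304), and 0.37 without WT array 3. Psmd1 and Psmd3 were chosen after their values were seen. Psmd1, a scaffold of the base, was 12.64, 13.25 and 12.22 in KO, against 12.40, 11.98, 9.58, 12.79 and 12.18 in WT. Its difference of 0.92 (95% interval -0.58 to 2.42), the largest of the 48, was 0.37 without WT array 3. Psmd3, another lid subunit, was 12.30, 13.13 and 12.39 in KO, against 12.52, 12.67, 10.03, 12.96 and 12.54 in WT, and its difference of 0.46 was -0.069 without WT array 3. WT array 3 was the lowest for both genes, 2.40 and 2.26 below the next array, and KO array 2 the highest.

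**Figure D3:**
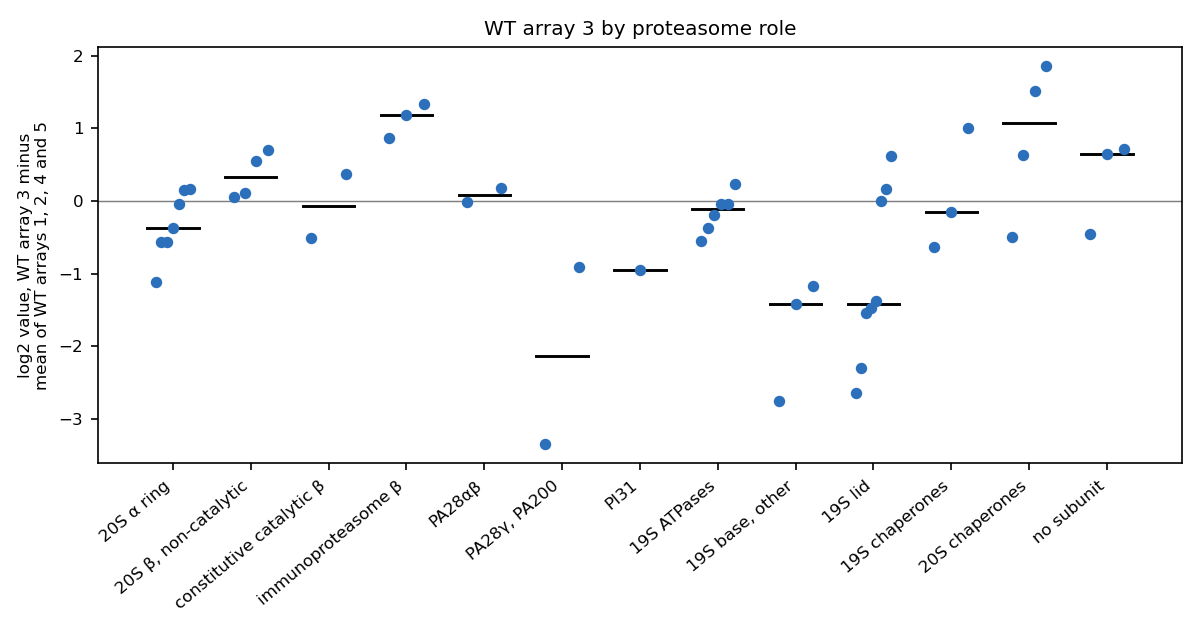
Log2 value on WT array 3 minus the mean of the other 4 WT arrays for each of the 48 tested genes (points), grouped by role, with the median of each role (bars). The medians of the 19S lid, the rest of the 19S base outside the ATPases and the pair of PA28γ and PA200 lie lowest, and those of the immunoproteasome subunits and 20S chaperones highest.

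For many genes WT array 3 was far from the other WT arrays, in both directions, for the proteasome as for the rest. It lay over 1 log2 unit below their mean for 10 of the 48 genes and over 1 above it for 5, beside 2233 and 969 of the 9920 genes. The plot by role shows the roles these members have. Its gap to the average of the remaining 4 WT arrays had a median of -1.42 over the 11 non-ATPase 19S genes, 9 of them lower and 8 at the lowest value of all 8 arrays. In the same direction, the gap was -3.35 for Psme4, -2.76 for Psmd1, -2.64 for Psmd3 and -2.31 for Psmd11. The 6 ATPases of the same particle had a median gap of -0.12, close to the -0.15 of all genes. The 13 tested core genes other than the immunoproteasome had a median gap of 0.056. In the opposite direction, the 3 immunoproteasome genes had a median gap of 1.18 and the 4 chaperones of the 20S core one of 1.07, led by 1.86 for Psmg3. Of these 4 chaperones, Psmg1 went the other way, with a gap of -0.50 and WT array 3 as its lowest array. WT array 3 held the lowest of the 8 values for 19 of the 48 genes and the highest for 14 (39.6% and 29.2%), beside 3620 and 2480 of the 9920 genes.

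Of the 7 chaperones that assemble the proteasome, 0 had an unadjusted limma p under 0.05 with all arrays, beside 2.84% of all genes. Without WT array 3 it was 1 of 7, Psmg2, beside 4.68% of all genes. Psmg1 and Psmg2 encode the partners PAC1 and PAC2, which start the α ring, and Psmg3 and Psmg4 encode PAC3 and PAC4. Psmg2 was 11.01, 10.99 and 11.22 in KO, against 10.61, 10.51, 11.96, 10.27 and 10.43 in WT. The 3 KO arrays lay above 4 of the WT arrays and below WT array 3. With all arrays the difference was 0.32 (95% interval -0.53 to 1.17; exact permutation p = 0.554). Without WT array 3 it was 0.62 (95% interval 0.24 to 0.99), and the exact permutation test gave its minimum over 35 splits, p = 0.0286. Limma's p was then 0.00508 unadjusted and 0.989 adjusted over all genes.

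Its partner Psmg1 was 8.55, 9.57 and 8.86 in KO, against 8.84, 9.15, 8.46, 9.22 and 8.64 in WT. The groups overlapped, with a difference of 0.13, or 0.033 without WT array 3. Psmg3 was 8.68, 8.71 and 8.94 in KO, against 8.48, 7.90, 10.23, 8.36 and 8.76 in WT, with WT array 3 lying 1.29 above the next array. The Psmg3 difference was 0.032 over the 8 arrays, against 0.40 when that array was omitted (95% interval -0.11 to 0.92). Psmg4 was 10.67, 11.23 and 11.14 in KO, against 11.39, 11.07, 11.80, 11.35 and 10.87 in WT. KO array 1 and WT array 5 were the lowest and WT array 3 the highest, and the difference was -0.28, or -0.16 without WT array 3. The 4 genes of these paired chaperones thus did not share a direction.

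The chaperones of the 19S base are Psmd5, Psmd9 and Psmd10, which hold the ATPases until the ring closes. Psmd10, or gankyrin, which also binds the retinoblastoma protein, was 11.62, 11.88 and 12.37 in KO, against 11.31, 11.44, 11.43, 12.18 and 11.40 in WT. KO array 3 was the highest, and 1 WT array, number 4, lay inside the KO range while the other 4 lay below it. The difference was 0.41 (95% interval -0.21 to 1.02; exact permutation p = 0.196), and 0.38 without WT array 3. Psmd5 was 9.09, 9.71 and 9.69 in KO, against 9.37, 9.95, 9.22, 9.94 and 10.12 in WT, a difference of -0.22, or -0.35 without WT array 3, with the groups overlapping. Psmd9 was 10.09, 10.64 and 10.53 in KO, against 10.11, 10.38, 11.28, 10.41 and 10.23 in WT, a difference of -0.064 that was 0.14 without WT array 3, its highest.

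Array by array, KO array 2 stood highest. The median of the 48 genes relative to the WT mean was -0.071, 0.25 and 0.047 on KO arrays 1 to 3, against 0.054, -0.056, -0.036, 0.067 and 0.021 on WT arrays 1 to 5. KO array 2 held the highest of the 8 values for 18 of the 48 genes (37.5%, beside 14.1% of all genes) and the lowest for 0. KO array 1 held the lowest for 11 (22.9%, beside 10.8%). KO array 2 also had the lowest median over all probe sets, 5.26, while its median over all tested genes was 0.088 above the WT mean; the part of this in the proteasome values was not tested.

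**Figure D4:**
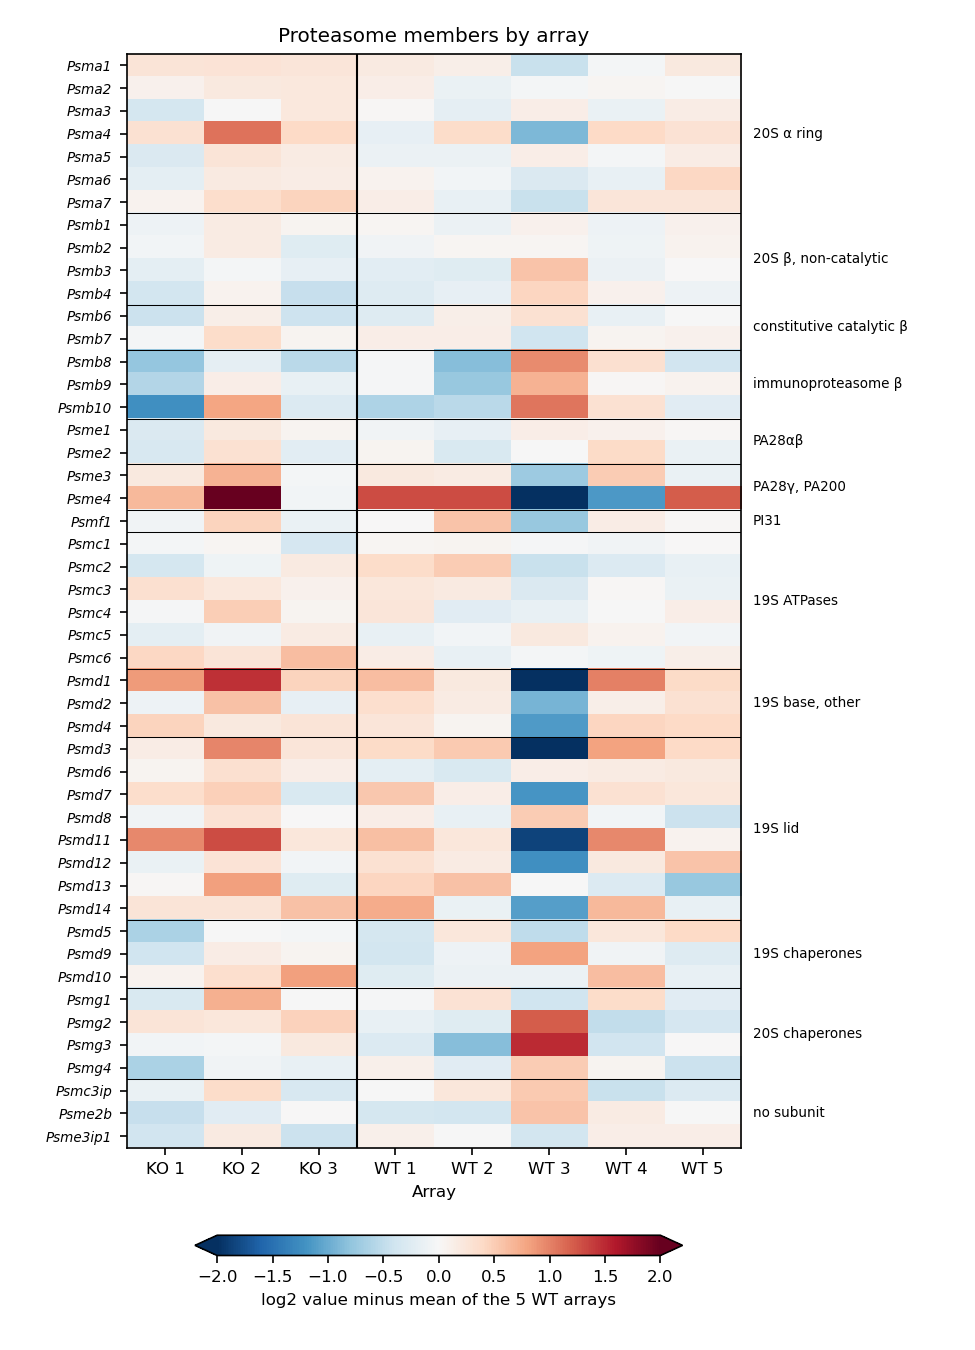
Log2 value minus the mean of the 5 WT arrays for the 48 tested genes (down the page, by role) on each array, from lower (blue) to higher (red), with colours held at 2 log2 units either way. KO array 2 is the highest array for 18 genes, and WT array 3 is low for most non-ATPase 19S genes and high for the immunoproteasome genes.

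The heat map of all members sets these array patterns side by side. Among genes outside the complex that act with it, 32 of 43 listed were in the table and 31 were tested, and the other 11 are not analysed here. None passed the test, 21 of 31 were higher in KO with a median difference of 0.061, and 9 of 31 with a median of -0.089 without WT array 3. Pomp, which chaperones the closing of the core, was 13.99, 14.07 and 14.00 in KO, against 13.82, 13.83, 14.10, 13.95 and 13.90 in WT. All KO values lay above 4 WT arrays and below WT array 3, as for Psmg2, but within a far narrower range, and the difference was 0.10, or 0.14 without that array (exact permutation p = 0.0571). With all arrays the groups overlapped for all 31 genes, while they did not overlap for 3.09% of all genes. Without WT array 3 the groups did not overlap for 3 of the 31 genes (9.68%, beside 5.55% of all genes). KO then lay above WT for Pomp and below it for Ecpas (-0.55) and Ufd1 (-0.16), the latter genes chosen after their values were seen. With all arrays the differences of Ecpas and Ufd1 were -0.057 and 0.045. Akirin2, which brings proteasomes into the nucleus, had a difference of 0.10, or 0.0029 without WT array 3, and Txnl1, a thioredoxin that binds the 19S particle, one of -0.26 (95% interval -0.73 to 0.20).

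The NRF1 pathway raises proteasome genes when proteasome activity falls short. Nfe2l1, which encodes NRF1, was 14.65, 14.39 and 14.57 in KO, against 14.54, 14.54, 13.78, 14.76 and 14.75 in WT. WT array 3 was the lowest, 0.60 below the next array, and the difference was 0.061, or -0.11 without it. All 4 tested genes of this list were higher in KO with all arrays and 0 of 4 without WT array 3. Among them Mafk and Mafg, partners of NRF1 on DNA, had differences of 0.24 and 0.11, and Ngly1, the glycanase that activates NRF1, one of 0.16.

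Of the enzymes that trim or extend ubiquitin chains on the proteasome, Usp14 had a difference of 0.38, Uchl5 of 0.18 and the ligase Ube3a of 0.26. Without WT array 3 these were -0.087, -0.045 and 0.091. Among the genes that bring substrates, Zfand5, which activates the 26S form, had a difference of 0.37 (95% interval -0.11 to 0.85; exact permutation p = 0.0714), and it was 0.28 without WT array 3. The shuttle genes Ubqln4 and Ubqln1 had differences of -0.39 and -0.27, or -0.50 and -0.16 without WT array 3. Uba6, an enzyme that activates ubiquitin, had one of 0.00055 over the 8 arrays, or -0.47 without WT array 3.

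Class I antigen loading uses the peptides that the immunoproteasome makes, and of its 9 tested genes and inducers 8 were lower and 1, B2m, was higher on WT array 3 than the mean of the other WT arrays. Psmb9, Tap1, Psmb8 and Tap2 are 4 consecutive genes on mouse chromosome 17. On WT array 3, where Psmb8 and Psmb9 were the highest of the 8 arrays, Tap1, which encodes a subunit of the peptide transporter, lay -0.55 from the average of WT arrays 1, 2, 4 and 5, and Tap2, chosen after its values were seen, lay -1.52 from it. Tap1 was 12.08, 12.59 and 11.64 in KO, against 12.24, 12.21, 11.82, 12.54 and 12.49 in WT, with overlapping groups and a difference of -0.16 (95% interval -0.77 to 0.46), or -0.27 without WT array 3. Tapbp, which encodes the loading factor tapasin, had a difference of 0.64 over the 8 arrays, or 0.03 without WT array 3, and B2m, the light chain of class I, one of -0.18, or -0.089 without it. B2m was 16.64 on WT array 3, its highest array, as for Psmb8, Psmb9 and Psmb10. Irf1, an interferon-induced activator of the immunoproteasome genes, was 7.96, 9.34 and 8.97 in KO, against 8.22, 9.28, 7.80, 8.02 and 7.89 in WT. KO arrays 2 and 3 and WT array 2 were the high ones, a set that differs from the arrays high in Psmb8, and the Irf1 difference was 0.51 (95% interval -0.43 to 1.46), or 0.40 without WT array 3.

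The 2 members too dim to be tested have narrow tissue roles. Psmb11, the catalytic subunit of the thymoproteasome of the thymic cortex, lay between 3.76 and 4.25, below the median of every array. Psma8, an α subunit of the testis, was 2.94, 3.38 and 3.66 in KO, against 3.98, 5.12, 3.95, 5.21 and 5.90 in WT. All 3 KO values lay below all 5 WT values, a difference of -1.51 (exact permutation p = 0.0357), but it exceeded the array median on 1 array only, so these values are mostly in the range of undetected transcripts. When all 19505 symbols were fitted without the filter, limma gave Psma8 an unadjusted p of 0.00946 and an adjusted p of 0.999. Psma8 was chosen after its values were seen. The 3 genes that match the name pattern without being counted as subunits had differences of -0.033 for Psmc3ip, -0.23 for Psme2b and -0.21 for Psme3ip1. The groups overlapped for each. Leaving out WT array 3 gave 0.097, -0.084 and -0.30. Psme2b is a near copy of Psme2, so the probe sets of these genes may not separate them.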

How the data were processed

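Gene expression was measured on 8 single-colour Affymetrix arrays, 3 KO and 5 WT, grouped by their titles. Per the labels' protocols, RNA was extracted with a kit for small samples and labelled with biotin by the standard Affymetrix method. The values used are the log2 values the authors deposited for 28846 probe sets. No label states the log base, which is inferred from values running from 1.89 to 18.65. How the authors corrected background and normalized, with which software and on which genome build, is not given in the sources used here. Although a mouse transcriptome array is named in the design text, the identifiers match the annotation of another Affymetrix mouse platform, so symbols rest on that match. Of 22206 probe sets for transcripts, 19572 had 1 symbol.

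A gene was tested where its probe set exceeded the overall array median on 3 or more arrays, with the probe set of highest mean kept per symbol, which left 9920 genes. The limma package (version 3.58.1, in R 4.3.3) fitted KO against WT to the deposited values with lmFit and a two-sided eBayes test, with Benjamini-Hochberg adjustment over all 9920 genes and 0.05 as the threshold. Intervals are limma's 95% intervals. For single genes the exact two-sided permutation test used all 56 splits of the arrays, or 35 without WT array 3. The scripts were tested on simulated data. The number of arrays limits the precision.

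Values per array are given for the catalytic β genes, Psme1 to Psme4, Psmf1, the assembly chaperones and for each direction, the 4 tested members of smallest unadjusted p. Among other genes of the pathway the rule took the 3 with the smallest unadjusted p of each list, with Nfe2l1, Pomp and Tap1. The members and all lists were chosen with earlier results of these data known. Alternatives were no filter and a stricter filter (60th percentile on 5 arrays), median centring, quantile normalization, the probe set of largest variance per symbol, array weights, eBayes with trend and robust, a block on the replicate number, a floor at the 25th percentile, and leaving out each array. Promoter sequences came from RefSeq (GRCm38.p6), 250 bases before each start. Python 3.11.15 with matplotlib 3.10.9 drew the figures.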

Additional observations from a re-analysis of the deposited data

Results flagged for a closer look

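In 69 genes the highest or the lowest of the 5 WT values was searched for an array far from the others, by Dixon's test (gap over range above 0.71). Chance gives about 1 in 20 groups, and 17 were found, 15 of them for WT array 3. WT array 3 stood apart over all genes too: it was found in this way for 10 of the 48 tested members (20.8%), beside 1440 of the 9920 genes (14.5%), and several of the genes searched had already been seen to be low there. On that array the low values were 9.58 for Psmd1, 12.08 for Psmd2, 10.03 for Psmd3, 10.67 for Psmd4, 12.11 for Psmd7 and 10.23 for Psmd12, all subunits of the 19S particle outside the ATPase ring. Psmb7 was 12.88 there and Psme3ip1 14.08, both also low, while Psmd9 at 11.28 and Psmg2 at 11.96, both assembly chaperones, were high. Among genes outside the complex, low values on WT array 3 were 12.94 for Uchl5, 5.64 for Uba6, 8.24 for Tapbp, 13.78 for Nfe2l1 and 8.41 for Pik3ca.

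Of the remaining pair, Psmd10, which encodes gankyrin, was high on WT array 4 at 12.18, and Irf1 was high on WT array 2 at 9.28.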

How the results depend on the processing

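Under each of 17 alternatives 0 genes were called at an adjusted p under 0.05, members included, and the lowest adjusted p of any of the 44 genes followed was 0.936. Genes at an unadjusted p under 0.05 numbered 282 of 9920 with the settings reported, 592 of 19505 with no filter, 446 with array weights and 464 without WT array 3, and from 217 (of 7895, stricter filter) to 333 (replicate block) under the others. Of the 44 genes 26 kept their sign throughout, among them Psmc6 (0.33 to 0.51), Psma1 (0.14 to 0.31), Psmb8 (-0.71 to -0.26) and Psmg2 (0.046 to 0.62). With array weights the difference turned to -0.081 for Ngly1, -0.082 for Nfe2l1, -0.006 for Psmd3, 0.10 for Psmd9, -0.0703 for Psmf1, -0.46 for Uba6, -0.028 for Uchl5 and -0.085 for Usp14. With the replicate block, 0 genes were called. WT arrays 4 and 5 share no number with a KO array, so the difference then rests on WT arrays 1 to 3 alone. WT array 3 therefore weighs more in it. The difference was 0.016 for Psme1, 0.0068 for Psme2, -0.091 for Psmg3, 0.011 for Tap1 and 0.43 for Psmc6. It was larger than with the settings reported for Psmd1 (1.39), Psmd11 (1.17) and Psma4 (0.82), each past an unadjusted 0.05 in limma. WT array 3 was the lowest array for each of these genes. Limma with that block gave Psmc6 an adjusted p of 0.936. Psmd10 also passed an unadjusted 0.05 without WT array 4. Deviations of arrays sharing a replicate number correlated at 0.018, -0.018 and 0.14 across genes. For KO and WT arrays of different number the correlations ran from -0.12 to 0.14. With so few pairs sharing a number, these values cannot decide whether replicate numbers pair the arrays. Leaving out 1 array at a time, differences ranged from -0.072 to 0.25 for Akirin2, -0.046 to 0.28 for Mafg, -0.0039 to 0.49 for Mafk, -0.11 to 0.13 for Nfe2l1, -0.064 to 0.36 for Ngly1, -0.39 to 0.042 for Pik3ca, -0.75 to 0.26 for Psmb10, -0.069 to 0.66 for Psmd3, -0.17 to 0.14 for Psmd9, -0.12 to 0.12 for Psme1, -0.27 to 0.044 for Psme2, -0.11 to 0.22 for Psmf1, -0.15 to 0.36 for Psmg1, -0.18 to 0.40 for Psmg3, -0.40 to 0.074 for Tap1, -0.47 to 0.19 for Uba6, -0.045 to 0.28 for Uchl5 and -0.087 to 0.69 for Usp14. The median of all members ranged from -0.048 (without KO array 2) to 0.15 (without KO array 1), and that of the 20S core genes other than the immunoproteasome from -0.028 to 0.17. The cause of these shifts was not tested. Filters set what dim genes can show: Psma8 and Psmb11 entered only the fit with no filter.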
